A study of Rattus norvegicus with 4 samples.

Results

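The ETS factors are transcription factors that share a DNA-binding domain, the ETS domain, which recognises sequences built around the letters GGAA. Many of them are read-outs or direct substrates of the ERK mitogen-activated protein kinase. Etv1, Etv4 and Etv5 form the PEA3 group, activators whose own transcription follows ERK activity in many tissues. Elk1, Elk3 and Elk4 are ternary complex factors, which sit beside serum response factor on early response genes and are phosphorylated by ERK. Ets1 and Ets2 carry an ERK phosphorylation site and act on matrix protease genes. Erg and Fli1 are best known from endothelial and blood cells, and Erg also from joint cartilage. The 10 genes named here were taken by symbol from a deposited table of 32623 rat genes, and each symbol had a single row. All 10 passed the filter on low counts.

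The cells were TSPCs, tendon stem/progenitor cells of the rat, and their transcripts were counted by RNA sequencing. There were 2 control libraries given DMSO, the solvent, and 2 libraries given U0126, a small molecule that blocks the MEK kinases and so the activation of ERK. The labels number the libraries of each group as biological replicates without naming an animal, culture or day. The spread behind each p-value is that between these 4 libraries and may be technical. Where 1 library is left out, its group holds 1 library that is assumed to vary like the other group, and the spread comes from that other group alone. The labels used here give no strain, age, dose or exposure time. In bulk RNA a change in the share of cells that express a gene and a change in the RNA per cell cannot be told apart.

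Total counts were between 36888913 and 42785190 per library. Mitochondrially encoded genes took 2.98% to 3.48% of counts in the controls and 4.82% to 5.64% with U0126, and whether this has a part in the results was not tested. Of 14023 genes tested, 2792 (19.9%) passed edgeR's quasi-likelihood test at a Benjamini-Hochberg adjusted p under 0.05, 8.41% as higher and 11.5% as lower with U0126. That number went to 913 without control replicate 1, to 899 without control replicate 2 and to 4644 without U0126 replicate 2. Fibroblast and tendon transcripts fitted the label in part. The collagen chain gene Col1a1 stood at 6967 TPM in the controls and 6620 with U0126, and the tendon factor Scx at 19.0 and 31.0 TPM. Tnmd, which marks mature tendon cells, had at most 5 counts in any library. Of the 13 tested tendon and progenitor markers, 5 were higher and 2 lower with U0126, with 3 higher without control replicate 2 and 8 higher without U0126 replicate 1. The proteoglycan genes Bgn (log2 fold change 0.74 ± 0.09 SE) and Fmod (1.27 ± 0.13) rose and the glycoprotein gene Tnc (-1.54 ± 0.12) fell. Thy1, the other gene that fell, was named after its values were seen, as were Scx and Tnmd.

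Among the 10 ETS factors, 3 fell and 1 rose with U0126, and 6 did not pass. The fallen genes were the 3 PEA3 factors, Etv1, Etv4 and Etv5, and the risen gene was Erg. The share called, 40% of the 10, stands beside 19.9% of all tested genes. The median log2 fold change was -0.24 over the 10 factors and 0.02 over all tested genes. In all 10 the CPM of both U0126 libraries lay on one side of both controls, which was so for 62.8% of all tested genes.

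**Figure D1:**
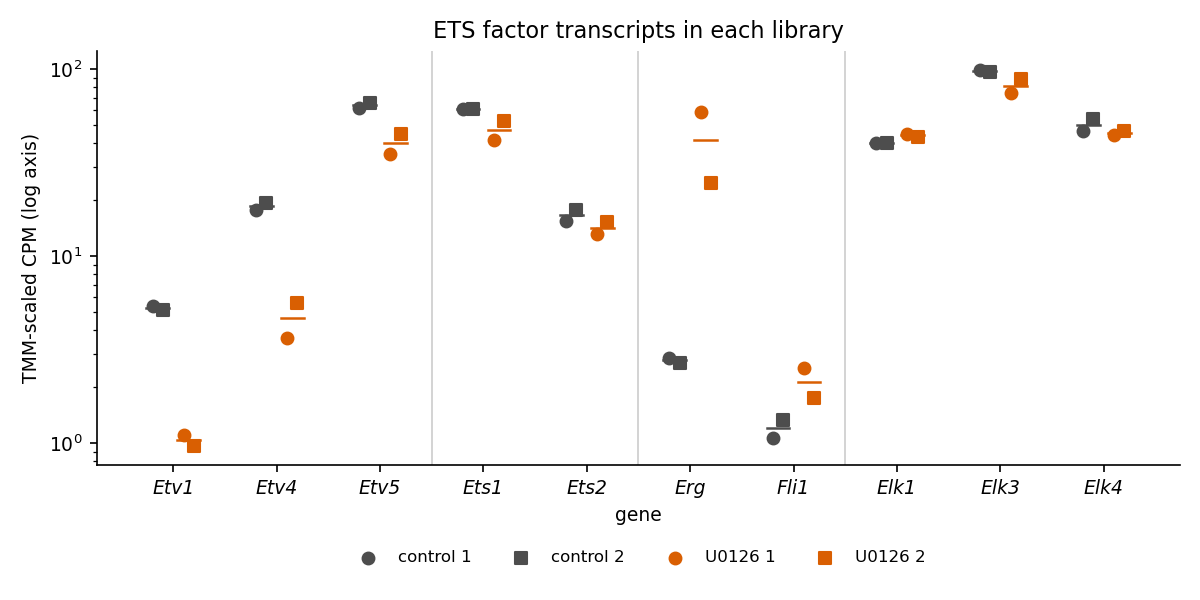
CPM scaled by TMM (log axis) of the 10 ETS factors in each of the 4 libraries, with controls in grey, U0126 in orange, and short lines at the group means of 2 libraries. Etv1 and Etv4 sit well below the controls in both U0126 libraries, Erg sits well above in both but with the 2 libraries at 58.6 and 24.6 CPM, and the Elk genes stay close to their controls.

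Etv1 (chromosome 6, 58467254 to 58558631, plus strand, rn6) had the largest fall in counts of the 10 factors with all 4 libraries. The controls had 215 and 225 reads of it and the U0126 libraries 42 and 35, or 5.42 and 5.17 against 1.11 and 0.967 CPM (reads scaled to library size after TMM). Both U0126 libraries were far below both controls, and replicates of a group were within 1.15 times of each other. The fall was 5.09-fold (log2 fold change -2.35 ± 0.23 SE, edgeR adjusted p = 8.82e-04).

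Etv4 (chromosome 10, 89685058 to 89700283, minus strand, rn6) was more abundant and fell 3.97-fold. It stood at 17.6 and 19.2 CPM in the controls and at 3.64 and 5.63 CPM with U0126 (log2 fold change -1.99 ± 0.22 SE, edgeR adjusted p = 0.00127). The groups did not overlap, and the U0126 libraries differed from each other 1.55-fold. The order of Etv1 and Etv4 turned on the other scale, with log2 ratios of -1.51 and -2.08 in TPM, and in counts without U0126 replicate 2, with log2 fold changes of -2.26 and -2.35.

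Etv5 (chromosome 11, 82194657 to 82252139, plus strand, rn6) was the most abundant PEA3 factor and fell least. It went from 61.7 and 65.9 CPM to 35.2 and 44.9 CPM, a fall of 1.59-fold (log2 fold change -0.67 ± 0.13 SE, edgeR adjusted p = 0.0130). The call was lost without either control, where the spread came from the U0126 libraries alone. The log2 fold change was -0.72 without control replicate 1 and -0.62 without control replicate 2. Over the alternatives that kept all 4 libraries, the adjusted p ranged from 1.92e-04 (DESeq2) to 0.0171 (limma on log2(TPM + 1)). The difference in fold between the 3 PEA3 genes was not tested.

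Erg (chromosome 11, 35646116 to 35749594, minus strand, rn6) moved the other way. The controls had 113 and 117 counts of Erg and the U0126 libraries 2222 and 892, or 2.85 and 2.69 against 58.6 and 24.6 CPM. The controls were within 1.06 times of each other and the U0126 libraries 2.38 times apart, the widest gap of any of the 10 factors. Even the lower U0126 library was far above both controls. The rise was 15.03-fold (log2 fold change 3.91 ± 0.41 SE, edgeR adjusted p = 0.00111), and 8.91-fold without U0126 replicate 1.

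Fli1, the close paralogue of Erg (chromosome 8, 33543258 to 33661049, minus strand, rn6), stayed low. The control libraries held 42 and 58 counts and the U0126 libraries 95 and 63, or 1.06 and 1.33 against 2.504 and 1.74 CPM. The log2 fold change was 0.83 ± 0.33 SE and did not pass (edgeR adjusted p = 0.132). With U0126 replicate 2 left out, which leaves the higher U0126 library and a spread from the controls alone, the edgeR adjusted p was 0.0496, the lowest of a range up to 0.491.

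Erg and Fli1 each lie next to a member of the Ets1 and Ets2 pair, an arrangement left by an old duplication. Erg and Ets2 (chromosome 11, 36075709 to 36092495, plus strand, rn6) are 326114 bases apart and point away from each other. One gene of the table, U4, lies between them and was not tested. Fli1 and Ets1 (chromosome 8, 33816386 to 33879625, plus strand, rn6) are 155336 bases apart, also divergent, with 0 genes of the table between them. The neighbours differed in their values. Ets2 was at 15.3 and 17.7 CPM in the controls and 13.2 and 15.1 CPM with U0126 (log2 fold change -0.22 ± 0.14 SE, edgeR adjusted p = 0.331). Its groups were separated by less than the distance between its own replicates. Ets1 was at 60.9 and 60.8 CPM in the controls and 41.7 and 52.8 CPM with U0126 (log2 fold change -0.36 ± 0.13 SE, edgeR adjusted p = 0.0900). With 1 U0126 library left (replicate 1) and the spread of the controls alone, which were almost level, the edgeR adjusted p of Ets1 was 0.00183, the lowest of a range up to 0.360.

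The ternary complex factors showed small differences. Elk1 (chromosome X, 1297099 to 1304822, plus strand, rn6) was at 40.22 and 40.20 CPM in the controls and 44.9 and 43.4 CPM with U0126 (log2 fold change 0.13 ± 0.09 SE, edgeR adjusted p = 0.357). Elk3, which is mainly a repressor until it is phosphorylated (chromosome 7, 34086220 to 34121694, minus strand, rn6), was at 99.3 and 96.2 CPM against 74.0 and 88.5 CPM. Its log2 fold change was -0.27 ± 0.11 SE (edgeR adjusted p = 0.137). With replicate 1 as the 1 U0126 library and the spread of the controls alone, its edgeR adjusted p was 0.00688, the lowest of a range up to 0.481. Elk4 (chromosome 13, 48790509 to 48813260, plus strand, rn6) was at 46.4 and 54.3 CPM against 44.5 and 46.3 CPM (log2 fold change -0.15 ± 0.11 SE, edgeR adjusted p = 0.386). The nearest libraries of its 2 groups were almost level. In 9 of the 10 factors U0126 replicate 1 lay further from the control mean than U0126 replicate 2, with Etv1 as the exception. The share of all tested genes with this order was not computed, so the order cannot be read as particular to these factors.

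To compare levels between genes, the deposited TPM values, which are scaled by transcript length, were used. In the controls the order was Elk3 (45.9 ± 0.186 TPM, SD, n = 2), Etv5 (29.5 ± 2.15), Elk1 (27.5 ± 0.715), Ets1 (21.7 ± 0.548), Etv4 (14.7 ± 1.51), Elk4 (9.91 ± 0.164), Ets2 (8.20 ± 1.05), Etv1 (2.69 ± 0.0995), Erg (2.27 ± 0.239) and Fli1 (1.18 ± 0.231). Etv5 and Elk1 were the only neighbours in that order whose libraries overlapped. With U0126 Erg moved from the ninth to the second place, at 36.2 ± 20.8 TPM, between Elk3 (36.6 ± 4.92) and Elk1 (29.0 ± 0.446), and its libraries overlapped with those of both. Etv5 (17.7 ± 3.17), Ets1 (16.2 ± 2.84) and Elk4 (12.8 ± 3.77) followed, and Etv5 overlapped with Ets1 and Ets1 with Elk4. Ets2 (6.75 ± 0.716), Etv4 (3.47 ± 1.12), Fli1 (2.00 ± 0.490) and Etv1 (0.943 ± 0.0742) came last, with no overlap between neighbours from Elk4 on.

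The summed TPM of the 10 factors was 159.4 and 167.7 in the controls and 165.4 and 157.9 with U0126, so the groups overlapped. In CPM, with no length scaling, the sums were 350.7 and 363.5 in the controls against 319.3 and 324 with U0126, without overlap. Without Erg the TPM sums were 157.0 and 165.6 in the controls against 114.4 and 136.4. Over the 27 ETS family genes of the table, Erg took 0.932% and 0.762% of the summed TPM in the controls and 19.7% and 8.50% with U0126. The PEA3 factors together took 16.98% and 17.95% in the controls and 7.43% and 9.92% with U0126. The Elk genes took 31.7% and 30.5% against 28.1% and 33.2%, and these ranges overlapped. Elk4 alone took 3.84% and 3.56% in the controls against 3.91% and 6.09%, though its CPM did not rise. Shares in TPM depend on the length used for each library, which differed for Etv1 and Elk4 and, to a lesser degree, for Erg, as given below. Ets1 and Ets2 together went from 11.02% and 11.28% to 7.91% and 10.04%.

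**Figure D2:**
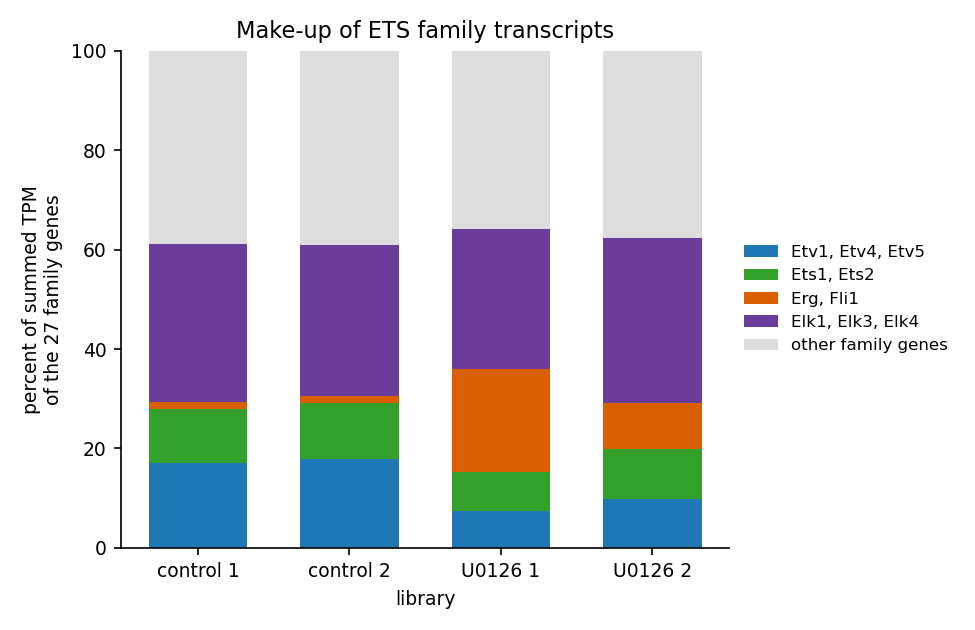
Percent of the summed TPM of 27 ETS family genes taken by each group of factors, 1 bar per library. The Erg and Fli1 part goes from 1.32% and 1.25% in the controls to 20.7% and 9.16% with U0126, while the part of Etv1, Etv4 and Etv5 shrinks in both U0126 libraries.

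The other 17 ETS family genes gave no call. Of these, 7 were tested and 0 passed edgeR's test, beside 19.9% of all tested genes, with 0 at an unadjusted p under 0.05 and 0 called by DESeq2 or limma-voom. Their median log2 fold change was -0.05. The tested genes were Etv3, Etv6, Erf, Elf1, Elf2, Elf4 and Gabpa. Erf, a repressor that ERK sends out of the nucleus, was the most abundant at 28.6 and 26.7 TPM (log2 fold change -0.04 ± 0.09 SE). Etv6 and Elf2, named after their values were seen, were called, as lower, only without U0126 replicate 2 (log2 fold changes -0.52 and -0.55). There replicate 1 was the 1 U0126 library and the spread was that of the controls alone. Of the 10 that were not tested with all 4 libraries, 8 had 0 counts in every library, among them Etv2, Elf5, Spdef and Fev. Spi1, the myeloid factor PU.1, also named after its values were seen, had 10 and 16 counts in the control libraries and 0 in both U0126 libraries. Against a floor of 3 counts over the U0126 libraries it was at least 7.72-fold lower, a bound that covers counting error only. Without U0126 replicate 2, Spi1 passed the filter on low counts and was also called as lower. Its log2 fold change there, -6.67, rests on 0 counts in 1 library.

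**Figure D3:**
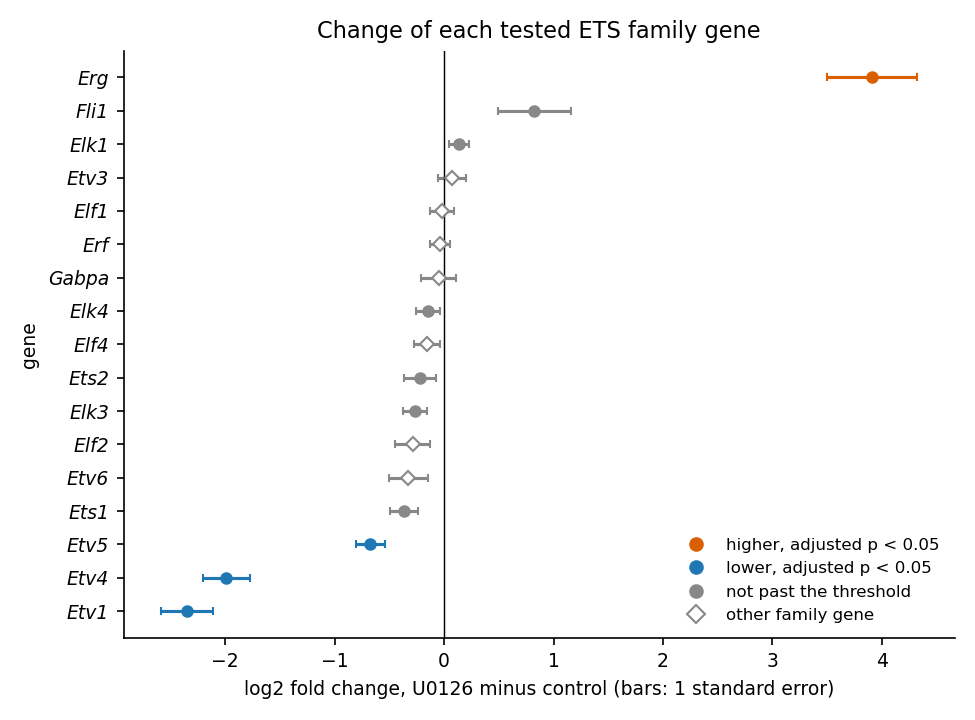
Log2 fold change, U0126 minus control, of the 17 tested ETS family genes with 1 standard error, filled circles for the 10 factors and open diamonds for the other 7. Erg lies furthest to the right at 3.91, with Fli1 next at 0.83 and not past the threshold, and Etv1, Etv4 and Etv5 lie furthest to the left.

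The count and the length-scaled value of a gene need not tell the same story, and for Etv1 they did not. A count divided by the deposited FPKM gives the transcript length implied for that library. For Etv1 this length was 3554 and 3702 bases in the controls and 1958 and 1933 bases with U0126, a log2 difference of -0.90. A difference at least as large was found in 8 of 13802 genes (0.058%), Etv1 included. In TPM the level of Etv1 therefore went from 2.76 and 2.62 to 0.996 and 0.891, a log2 ratio of -1.51 beside -2.35 in counts. Both scales put both U0126 libraries below both controls. Elk4 also varied, with 8385 and 10409 bases in the controls and 7775 and 5351 bases with U0126. A length difference as large as that of Elk4 occurred in 0.326% of genes. Its TPM values were 10.02 and 9.79 against 10.1 and 15.4, so the direction of Elk4 depended on the scale, with a log2 ratio of 0.36 in TPM and -0.15 in counts. For Erg the lengths were 2119 and 2406 bases in the controls and 2025 and 2038 bases with U0126. The other 7 factors differed in implied length by at most 0.04 on the log2 scale. Which transcripts of Etv1 and Elk4 were present was not tested, since the table holds gene totals.

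**Figure D4:**
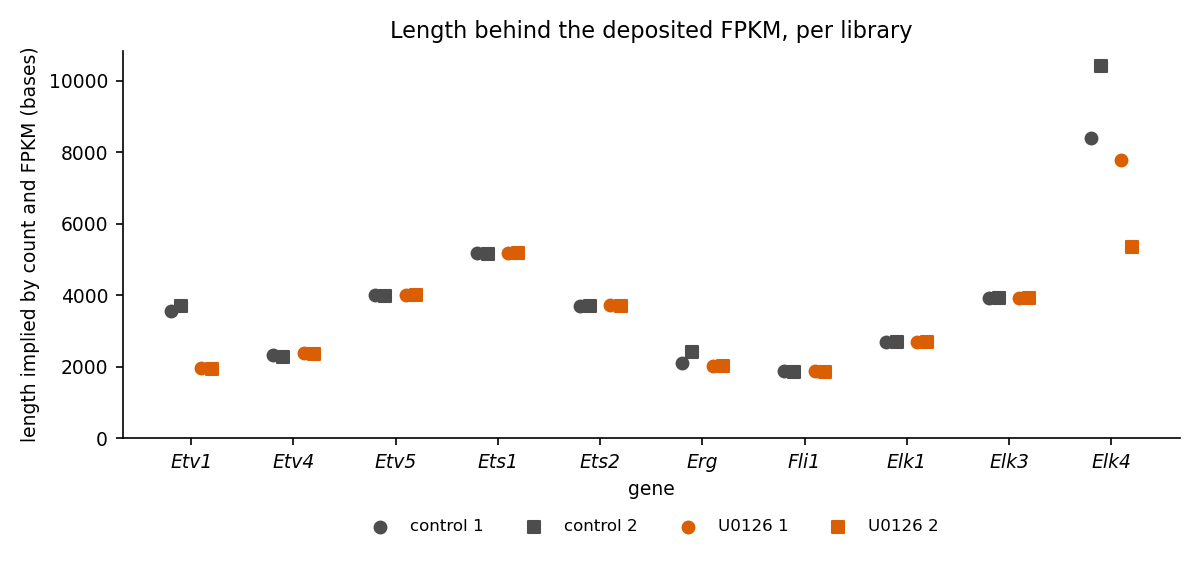
Transcript length in bases implied by the count and the deposited FPKM of each ETS factor, 1 point per library, with controls in grey and U0126 in orange. Etv1 falls from 3554 and 3702 bases to 1958 and 1933 bases, Elk4 ranges from 5351 to 10409 bases, and most others hold to one length.

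The start regions of Etv1, Etv5 and Erg are shown because Etv1 and Etv5 fell together while Erg rose. RefSeq's promoter table (build GRCr8) matched 7 of the 10 factors, Etv1, Etv5, Ets2, Erg, Elk1, Elk3 and Elk4, with 9 windows since Elk4 has 3 starts. Etv4, which was also called, had no window, nor had Ets1 and Fli1. Whether these starts are the ones used in these cells was not tested. Each sequence holds the 250 bases before the start, read 5′ to 3′ on the strand of the gene, and capitals mark the ETS core, GGAA or its complement TTCC. The windows are chr6:61317179-61317428 (plus strand) for Etv1, chr11:92113013-92113262 (plus strand) for Etv5 and chr11:48251567-48251816 (minus strand) for Erg.
Etv1: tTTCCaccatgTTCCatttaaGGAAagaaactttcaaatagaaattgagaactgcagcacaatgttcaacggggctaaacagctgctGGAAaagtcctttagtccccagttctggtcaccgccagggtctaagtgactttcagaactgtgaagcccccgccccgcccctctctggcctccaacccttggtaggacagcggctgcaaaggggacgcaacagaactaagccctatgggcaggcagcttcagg
Etv5: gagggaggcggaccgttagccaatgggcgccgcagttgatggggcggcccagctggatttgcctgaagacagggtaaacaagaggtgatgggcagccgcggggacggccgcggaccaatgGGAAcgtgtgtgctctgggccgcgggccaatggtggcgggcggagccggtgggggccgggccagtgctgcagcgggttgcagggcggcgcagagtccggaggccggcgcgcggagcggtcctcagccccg
Erg: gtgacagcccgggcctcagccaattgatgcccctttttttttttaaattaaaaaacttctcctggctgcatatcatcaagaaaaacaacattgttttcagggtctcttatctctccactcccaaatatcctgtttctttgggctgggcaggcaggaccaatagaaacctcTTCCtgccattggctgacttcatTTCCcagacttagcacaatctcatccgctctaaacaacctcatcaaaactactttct

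Etv1 held 4 ETS cores, Etv5 1 and Erg 2. The core is short, and 93.2% of 33469 rat windows of the same length held at least 1, with a median of 3. The window of Etv1 also held a CArG box, the motif of serum response factor, as CCATTTAAGG, whose first base lies 237 bases before the start. Both ends of this box overlap an ETS core, the TTCC before it and the GGAA after it. A CArG box was found in 1.5% of all windows and in none of the other 8 windows of these factors. The longer ETS site CCGGAAGT, on either strand, was in 3.1% of all windows and in 1 window of Elk4. Further motifs, searched on both strands, had 0 matches in the 9 windows. They were TGAATGAA or TGAATGGA, letters read by the repressor Cic (2.26% of all windows), the AP-1 site TGANTCA (6.34%) and the CRE site TGACGTCA (1.59%). A match is a run of letters and was not tested as a binding site.

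Of 16 tested partners and regulators of ETS factors, 1 rose and 1 fell, or 12.5% beside 19.9% of all tested genes, with a median log2 fold change of -0.04. Srf, the serum response factor that the Elk proteins bind, was the one that fell (log2 fold change -0.71 ± 0.10 SE, edgeR adjusted p = 0.00437). It lost its call without control replicate 1 (edgeR adjusted p = 0.0634). Runx1, which binds DNA together with Ets1, was the one that rose (log2 fold change 0.48 ± 0.09 SE, edgeR adjusted p = 0.0122). Its call was lost without either control, and the lowest adjusted p of its alternatives was that of DESeq2 (0.00170). Rfwd2, the ubiquitin ligase COP1 that degrades PEA3 factors, was the most abundant at 68.5 and 62.4 TPM (log2 fold change -0.08 ± 0.10 SE). Cic, the repressor of the PEA3 genes, named after its values were seen, had a log2 fold change of 0.11 ± 0.09 SE (edgeR adjusted p = 0.439). Without U0126 replicate 2, 3 partners rose and 2 fell, and 2 also fell under DESeq2, with library totals alone, with limma on log2(TPM + 1) and without U0126 replicate 1. Of 18 listed partners, 16 were found in the table under their symbol or a fixed older one.

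Known target genes of the Elk and serum response factor complex fell in part. Of 10 tested, 4 fell and 0 rose, or 40% beside 11.5% of all tested genes that were lower, with a median log2 fold change of -0.42. Ier2, an early response gene, fell with counts of 2617 and 2975 against 999 and 1404 (log2 fold change -1.05 ± 0.17 SE, edgeR adjusted p = 0.00704). Arc, another early response gene, had 95 and 108 counts against 29 and 39 (log2 fold change -1.40 ± 0.32 SE, edgeR adjusted p = 0.0225). Nr4a1 and Egr1 were the other fallen members. Junb, an AP-1 subunit and the most abundant of the list at 261.6 and 199.1 TPM, did not pass (log2 fold change -0.34 ± 0.18 SE, edgeR adjusted p = 0.235). Fos and Fosb, named after their values were seen, had log2 fold changes of -0.05 each. The fallen genes numbered 2 with control replicate 1 left out, 1 with control replicate 2 left out and 7 with U0126 replicate 2 left out. The Egr1 and Arc calls were lost without either control, and that of Ier2 without control replicate 2 (edgeR adjusted p = 0.0560). DESeq2 did not call Egr1, and limma on log2(TPM + 1) did not call Nr4a1 (limma adjusted p = 0.0591).

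Genes used elsewhere as a score of MEK activity, among which Etv4 and Etv5 usually stand, were taken without those ETS members. Of 8 tested, 4 fell and 0 rose, or 50% beside 11.5% of all tested genes that were lower, with a median log2 fold change of -0.55. The strongest was Phlda1, a pleckstrin-like adaptor protein, with 4389 and 4246 counts against 1321 and 1808 (log2 fold change -1.30 ± 0.17 SE, edgeR adjusted p = 0.00279). Spry2, a feedback inhibitor of receptor kinases, had 1979 and 2065 counts against 788 and 1039 (log2 fold change -0.98 ± 0.16 SE, edgeR adjusted p = 0.00607) and lost its call without control replicate 1 (edgeR adjusted p = 0.0581). Dusp6 and Ccnd1 were the other 2, and Ccnd1 lost its call without either control (edgeR adjusted p up to 0.112). The fall of Etv1 and Etv4 in counts was larger on the log2 scale than that of any of these 8, and the fall of Etv5 lay between those of Dusp6 and Ccnd1, differences between genes that were not tested. Without control replicate 1 the fallen genes of this list numbered 2.

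**Figure D5:**
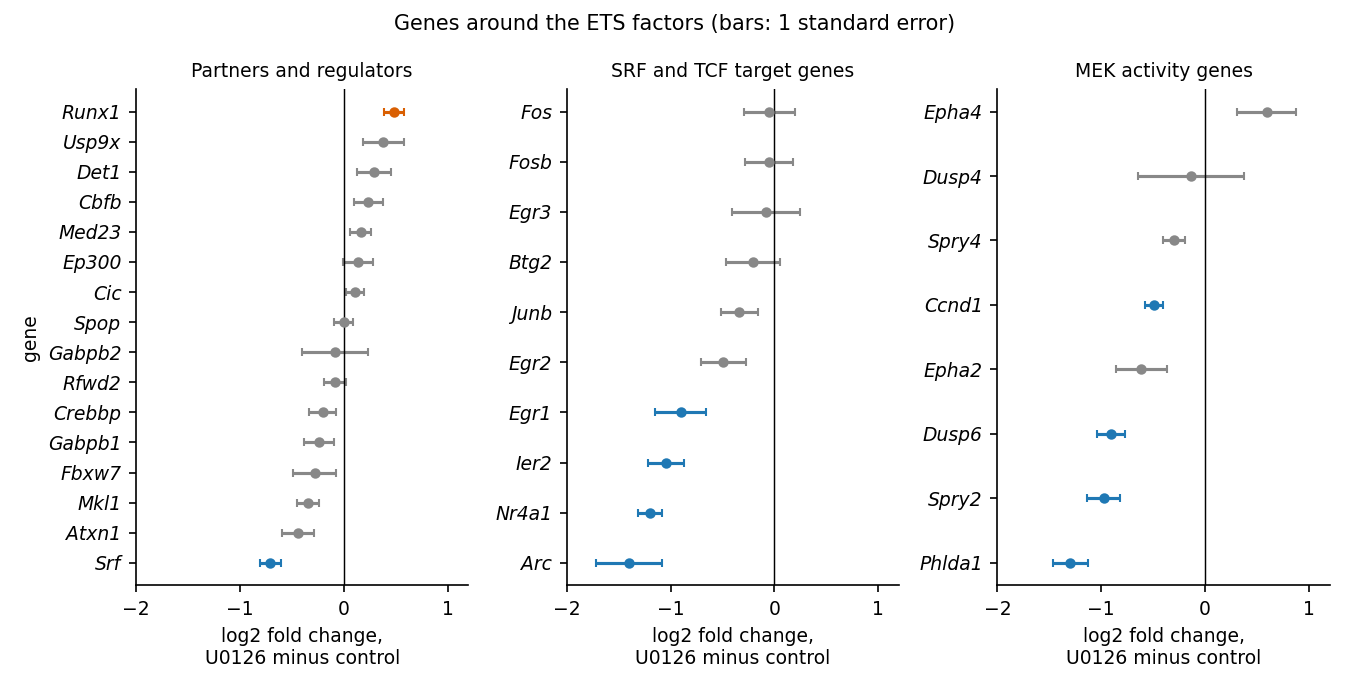
Log2 fold change, U0126 minus control, with 1 standard error for the tested partners of ETS factors, target genes of serum response factor and the ternary complex factors, and MEK activity genes, coloured where the edgeR adjusted p was under 0.05. Falls (blue) reach -1.40 in Arc and -1.30 in Phlda1, and the one rise (orange) is Runx1.

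Because Erg and Fli1 mark endothelial and blood cells, markers of those cells were read beside them. Of 15 endothelial markers listed, 13 were in the table. Of these, 5 had 0 counts in every library, Cdh5, Tie1, Cldn5, Emcn and Sox17. Kdr and Vwf had at most 9 counts in any library, and Icam2 at most 6. Tek and Sox18, tested and not called, had at most 31 and 25 counts in any library. The summed TPM of the list was 31.1 and 31.0 in the controls and 26.7 and 27.9 with U0126, most of it from Egfl7 (27.6 and 24.1 TPM), followed by Esam (2.19 and 2.69 TPM). Of 5 tested, 1 fell and 0 rose, or 20% beside 19.9% of all tested genes called and 11.5% lower, with a median log2 fold change of -0.77. The gene that fell was Flt1, a VEGF receptor, with 74 and 60 counts against 15 and 9 (edgeR adjusted p = 0.0120), which passed the filter on low counts through the controls. Leaving out either control ended its call (edgeR adjusted p up to 0.139), as did limma on log2(TPM + 1) (limma adjusted p = 0.0821). Of 8 blood markers in the table, 4 had 0 counts in every library, Ptprc, Tyrobp, Cd3e and Cd79a. The summed TPM of the blood list was 14.1 and 13.6 in the controls and 11.6 and 11.4 with U0126, most of it from Cd14 (12.8 and 10.9 TPM), followed by Cd68 (0.782 and 0.340 TPM). Of 3 tested blood markers, 0 passed edgeR's test beside 19.9% of all tested genes, 0 had an unadjusted p under 0.05, and 0 were called by DESeq2 or limma-voom. Their median log2 fold change was -0.58.

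Joint cartilage genes were read for the same reason. Of 5 tested, 2 were higher and 1 lower with U0126, beside 8.41% and 11.5% of all tested genes, with a median log2 fold change of -0.15. Without either control 1 was higher, and without U0126 replicate 2, 2 were lower. Col2a1, the main cartilage collagen chain, had 6 and 8 counts in the control libraries and 124 and 75 in the U0126 libraries. It passed the filter on low counts through the U0126 libraries alone, so its call (edgeR adjusted p = 0.00150) and its place in that count follow in part from the filter, and it was not tested with CPM above 1 in every library. Matn3, a cartilage matrix protein, had 37 and 36 counts against 249 and 91 (log2 fold change 2.37 ± 0.47 SE, edgeR adjusted p = 0.0142), and lost its call without either control (up to 0.105). Without U0126 replicate 1 its log2 fold change was 1.51. Matn3 stood at 0.933 and 0.827 CPM in the controls and, like Col2a1, was not tested with CPM above 1 in every library. As for Erg, U0126 replicate 1 was the higher library for both. Acan, the large cartilage proteoglycan, was the gene that fell (log2 fold change -1.27 ± 0.14 SE, edgeR adjusted p = 0.00149). Sox9, the second most abundant of the list at 8.04 and 5.96 TPM, did not pass (edgeR adjusted p = 0.142). Prg4 and Gdf5 were named after their values were seen. Prg4 did not pass (log2 fold change -0.15 ± 0.45 SE, edgeR adjusted p = 0.852). Gdf5 was not tested, with 6 and 4 counts in the controls and 0 in both U0126 libraries. Col9a1 and Matn1 had 0 counts in every library. The summed TPM of the list, nearly all from Acan, was 497.7 and 567.3 in the controls and 188.1 and 242 with U0126. The part of these cells in the rise of Erg was not tested.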

How the data were processed

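Per the file headers, the table that the authors deposited gives counts, TPM and FPKM for each Ensembl gene in 4 libraries. The deposited counts are whole numbers and not normalized, the deposited TPM values are scaled by length to a fixed total per library, and the deposited FPKM values are scaled by length and library size. RNA was extracted with Trizol, per the labels' protocols, and the submitters' processing notes name the genome build rn6. The aligner, counter, strand setting and annotation were not given in the sources used here. Reads shared by overlapping genes can thus not be told apart. Each column was assigned to the sample whose description shares its letter and number, and 0 columns stayed unmatched.

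Counts of 14023 genes that passed filterByExpr (minimum count 10, minimum total 15) were scaled by TMM and tested by edgeR's quasi-likelihood F test, two-sided, with Benjamini-Hochberg adjustment over all tested genes and a threshold of 0.05 (R 4.3.3, edgeR 4.0.16, limma 3.58.1, DESeq2 1.42.0). Standard errors are the size of the log2 fold change over the square root of F. Where 2 levels are given per gene in TPM, they are the means of the control and of the U0126 libraries. TPM was used for levels between genes and FPKM for the implied length. The test was tried on simulated counts of 13832 genes, of which 200 were changed, a smaller share than the 19.9% called in the data. There 12.7% of calls fell on unchanged genes, more than the nominal share. Of 2-fold changes 79% were recovered, and of 4-fold changes 99%.

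The 10 factors and 8 lists of other genes were chosen with earlier results of these data known. Named genes were all 10 factors, up to 4 called genes and the most abundant gene of each list of partners or targets, and the 2 most abundant and up to 3 called genes of each marker list. Alternatives were other scaling (RLE, library totals), other filters, DESeq2, limma-voom, a replicate block, each library left out and, added after the data were seen, limma on log2(TPM + 1).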

Additional observations from a re-analysis of the deposited data

How the results depend on the processing

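Of the 10 factors, Etv4 and Erg kept their direction and their call in all 12 alternatives and Etv1 in the 11 in which it was tested. Etv1 was not tested with a filter of CPM above 1 in every library. The log2 fold change ranged from -2.45 to -0.93 for Etv1, from -2.35 to -1.71 for Etv4, from -0.87 to -0.51 for Etv5 and from 3.15 to 4.39 for Erg. The value nearest to 0 for Etv1 was that of limma on log2(TPM + 1), which differs both in the length scaling (the log2 ratio of its TPM was -1.51) and in the added 1. Ets2 and Elk1 kept their direction and were called in none of their 12 alternatives. With 1 library left out, between 1 and 2 factors rose and between 2 and 5 fell, between 0 and 3 other family genes were called, and between 899 and 4644 of all genes were called. Elk4 reversed with limma on log2(TPM + 1), at 0.31 (limma adjusted p = 0.341), a value that carries the length scaling. The log2 ratio of Elk4 was 0.36 in TPM and -0.15 in counts, and its implied length had a log2 difference of -0.52. Why the implied length differed was not tested. The labels number the replicates alike in both groups. The differences between replicates 1 and 2 had a correlation of -0.0315 across genes between the groups, and the labels name no shared source, so the numbers were not taken as pairs. With a replicate block 3 factors fell, 1 rose, 0 other family genes were called and 2371 of all genes were called. The summed level of the 10 factors had a log2 ratio of -0.02 in TPM and -0.01 in FPKM, which are both scaled by length. Summed in CPM, it was lower in both U0126 libraries than in both controls. With 2 libraries per group, and from 35 to 58 counts in the lower group for Etv1 and Fli1, small changes of these low genes could not be resolved.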

Other observations

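The genes whose profile over the 4 libraries was nearest to that of a called factor were listed by the Euclidean distance between log2 CPM values, each centred on its mean, among 8472 candidates whose log2 CPM averaged 3 or more. With 4 libraries in 2 groups this is a description of size and spread only. For Etv1 they were Tk1 (distance 0.0831), Cdca8 (0.130) and Knstrn (0.152). For Etv4 they were Hmga1 (0.120), Mrvi1 (0.142) and Anxa3 (0.229). For Erg the nearest genes were further off, Igfbp3 (0.474), Ptger3 (0.586) and Prima1 (0.606).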
